A study of Mus musculus with 8 samples.

Results

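Voltage-gated sodium and calcium channel genes were followed across naive brain and ependymoma of mice given vehicle or the kinase inhibitor MRX-2843. The set was taken by gene symbol alone: the pore-forming sodium channel alpha subunits (symbols of the form Scn1a), the sodium channel beta subunits (of the form Scn2b), and the alpha1, alpha2delta, beta and gamma subunits of calcium channels (Cacna1, Cacna2d, Cacnb and Cacng genes). This rule found 40 of the 55414 genes in the count table, each matched by a single row. The 38 genes described, 12 for sodium channels and 26 for calcium channels, all passed the filter on low counts. Scn4a passed only through vehicle tumor, so its presence among the genes tested depends on that group.

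Voltage-gated sodium channels open when a membrane is depolarised and carry the upstroke of the action potential. Their alpha subunit forms the pore, and beta subunits, single-pass membrane proteins that also act as adhesion molecules, set its gating and placement. Calcium channels of the CaV1 and CaV2 families need strong depolarisation: CaV1 (L-type) channels couple electrical activity to contraction and gene expression, and CaV2 (P/Q-, N- and R-type) channels trigger transmitter release. CaV3 (T-type) channels open near rest and shape burst firing. Alpha2delta and beta subunits bring CaV1 and CaV2 pores to the membrane. Of the gamma genes, some belong to the channel of skeletal muscle or resemble it, and others encode TARPs, transmembrane proteins that carry AMPA-type glutamate receptors to synapses. In the brain most of these genes are best known from neurons.

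The 8 libraries form 4 groups of 2: vehicle naive brain, vehicle tumor, naive brain after 5 days of 50 mg/kg MRX-2843, and tumor after the same treatment. Tumors had been seen by MRI before mice were randomised, doses were given once a day by oral gavage, and tissue was taken 1 h after the last dose. MRX-2843 inhibits the receptor tyrosine kinases MERTK and FLT3. All 8 libraries carry the genotype label ZFTA-RELAfusion, the fusion that drives this supratentorial ependymoma model, and the drug's name as cell line. The labels give no strain, age or sex, and do not say how the fusion was introduced, which part of the brain was taken, or whether naive tissue came from mice with a tumor. They call the libraries of a group duplicates without naming separate animals, so p-values may measure technical spread only.

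Several properties of whole libraries bear on the results. Totals ran from 51150569 to 112938462 counts. In vehicle tumor, 3.26 and 3.37% of counts were mitochondrially encoded, against 14.7 to 18.5% in the other 6 libraries. The libraries labelled MRX-2843 tumor resembled naive brain: across 13541 genes their Pearson r with vehicle naive brain was 0.972 to 0.973 and with vehicle tumor 0.617 to 0.622 (genes are not independent replicates). Their 12 neuron markers summed to 4829.5 and 4836 CPM (read counts divided by library totals scaled with TMM, a normalisation for composition), against 618 and 613 in vehicle tumor. Proliferation markers summed to 29.9 and 24.1 CPM there, 253 and 249.6 in vehicle tumor and 4.75 to 6.54 in naive brain. These libraries therefore go against their tissue label, and every comparison that uses them compares libraries as labelled. They are called MRX-2843 tumor as labelled from here on. Where MRX-2843 tumor stands without these words, it names the same libraries by their label only. Xist, which is transcribed from the inactive X, lay at 502 to 771 raw CPM with MRX-2843 and at 0.461 to 2.75 with vehicle, while Y-linked Ddx3y had 0 counts in every MRX-2843 library and 2168 to 6717 with vehicle. Treatment also coincides with a number in the column names. It is 909 for every MRX-2843 library, tumor and naive alike. It is 914 for both vehicle tumor libraries and vehicle naive library 1, and 915 for vehicle naive library 2. Libraries labelled tumor and naive brain thus share a number, and the labels do not say what it stands for. Treatment, sex and whatever that number marks cannot be told apart.

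Levels of different genes are compared here as CPM per kilobase of merged exons (CPM per kb), as mean ± SD of 2 libraries. In vehicle naive brain, Scn8a, the alpha subunit that concentrates at axon initial segments and nodes of Ranvier, led the pore-forming sodium channel genes with 16.3 ± 0.506 CPM per kb, followed by Scn2a, a channel of excitatory neurons, with 10.7 ± 0.508 and Scn1a, the main alpha subunit of many inhibitory neurons, with 5.66 ± 0.405. Scn3a, best known from the embryonic brain, had 2.49 ± 0.127 CPM per kb. Scn4a, Scn7a, Scn9a, Scn10a and Scn11a were each at or below 0.485 CPM per kb. The beta subunit genes Scn2b, Scn3b and Scn4b had 37.7 ± 0.335, 19.8 ± 1.18 and 12.4 ± 0.533 CPM per kb. Among calcium channel pores, Cacna1b, the N-type channel, had 12.1 ± 1.02, Cacna1g 11.5 ± 0.0865, Cacna1h 11.2 ± 0.598 and Cacna1a, the P/Q-type channel, 10.3 ± 0.232 CPM per kb. By this length the libraries of the first 3 overlapped, and Cacna1a lay below them. The order depends on the length used. With the longest transcript of each gene as length, Cacna1a led the calcium channel pores, with 16.8 and 17.2% of their summed level. Cacna1b then had 15.05 and 13.2%. Cacna1d led the L-type genes with 4.98 ± 0.0958 CPM per kb. Among auxiliary subunits, Cacna2d1, a binding site of gabapentin, had 14.6 ± 0.844, Cacnb3 81.1 ± 0.0960 and Cacng7 75.1 ± 3.45 CPM per kb.

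**Figure D1:**
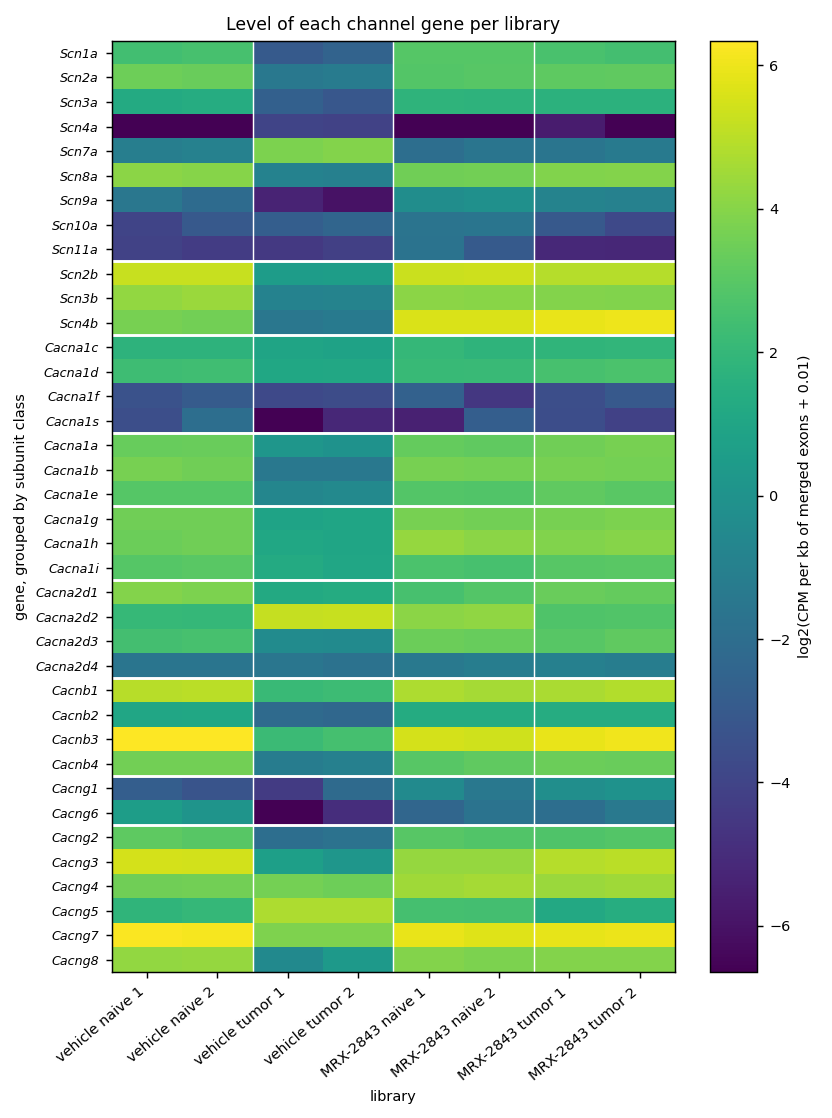
Heat map of the 38 genes (rows, grouped by subunit class) in the 8 libraries (columns, in 4 groups of 2); colour gives the level on a log scale as labelled on the bar. The 2 vehicle tumor columns stand apart in most rows, with Scn7a, Cacna2d2 and Cacng5 among the few rows that are higher there than in vehicle naive brain.

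Vehicle tumor was first compared with vehicle naive brain. Scn4a, which passed the filter only through the group where it was high, is not counted here and is described by its reads. Of the other 37 channel genes, 28 fell and 3 rose by edgeR's quasi-likelihood test (adjusted p under 0.05), so 31 (83.8%) were called, where 60.1% of all 24356 genes tested were. By direction, 30.8% of all genes fell and 29.3% rose. The median log2 fold change of the 37 genes was -3.29 and that of all genes tested -0.026. Libraries of the groups did not overlap for 33 of the 37 genes, and for 80.5% of all genes. Of the genes called, 27 fell and 3 rose by at least 2-fold, as did 21.2 and 19.1% of all genes (40.2% together). The 12 neuron markers moved the same way: 12 of 12 fell, and the list summed to 618 and 613 CPM in vehicle tumor against 7898 and 7864 in vehicle naive brain. Their part in the falls of channel genes was not tested. In RNA from whole tissue, fewer cells of a type and less RNA per cell cannot be told apart. Without both libraries labelled MRX-2843 tumor in the fit, 28 fell and 4 rose, Scn4a included.

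Of the sodium channel alpha subunit genes, Scn1a, Scn2a, Scn3a, Scn8a and Scn9a fell. Scn1a had 59.9 and 66.3 CPM in vehicle naive brain, 1.32 and 1.81 in vehicle tumor, 84.4 and 84.5 in naive brain under MRX-2843, and 68.4 and 61.8 in MRX-2843 tumor as labelled. The vehicle tumor libraries were far below the other 6, and the log2 fold change from vehicle naive brain to vehicle tumor was -5.33 ± 0.13 (adjusted p = 2e-14). Scn8a had 263 and 252 CPM in vehicle naive brain, 8.36 and 7.88 in vehicle tumor, 179.9 and 185 in naive brain under MRX-2843, and 233 and 241 in MRX-2843 tumor as labelled, and fell by 4.99 ± 0.068 on the log2 scale in vehicle tumor (adjusted p = 9.1e-17). Scn2a and Scn3a changed by -4.79 ± 0.092 and -4.29 ± 0.14. Scn9a, known for its role in pain-sensing neurons, had 4.46 and 2.89 CPM in vehicle naive brain, 0.185 and 0.0681 in vehicle tumor, 10.5 and 11.5 in naive brain under MRX-2843, and 7.01 and 6.46 in MRX-2843 tumor as labelled. It changed by -4.85 ± 0.38 from low levels. Scn10a and Scn11a, also channels of sensory neurons, were at or below 1.44 CPM in these 4 libraries and were not called, with log2 fold changes of 0.95 ± 0.52 and -0.13 ± 0.87.

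Against these falls, Scn7a rose and Scn4a had nearly all of its reads in vehicle tumor. Scn7a (chr2:66673425-66784914, minus strand, GRCm38), which encodes the sodium-sensing channel of glia and neurons known as Nax, had 3.39 and 3.72 CPM in vehicle naive brain, 101 and 111 in vehicle tumor, 1.80 and 2.36 in naive brain under MRX-2843, and 2.32 and 2.90 in MRX-2843 tumor as labelled. Its rise was 4.90 ± 0.14, 29.8-fold (adjusted p = 1.9e-13), and the vehicle tumor libraries stood above the other 6. Scn4a, the channel of skeletal muscle, had 32 and 30 counts in vehicle tumor, 0 in the 4 naive libraries, and 4 and 0 in MRX-2843 tumor as labelled.

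The level of Scn4a in vehicle tumor was at least 16.2-fold higher than in vehicle naive brain, with that group set at 3 counts in all, the limit that a count of 0 allows. Its adjusted p of 0.033 supports nothing here, since the gene was tested only because of its reads in vehicle tumor, and the call was lost without any single one of the 4 vehicle libraries and with a replicate block. Few muscle markers rose. Of 10 skeletal muscle markers 1 rose, Tnnt3, from 0 and 0.253 to 326 and 329 CPM, and 3 fell, while Ckm, muscle creatine kinase, had 0.347 and 0.238 CPM in vehicle tumor. The list's sum was 55.5 and 49.2 CPM in vehicle naive brain, against 333 and 335 in vehicle tumor. Of 7 cardiac markers 6 were tested, with 1 higher, Tnni3 at 0.660 and 0.864 and then 69.4 and 67.9 CPM, and 2 lower. Nppa and Myl7, markers of the atrium, were at 0 in both vehicle tumor libraries, and the list summed to 141 and 147 CPM in naive brain and 80.8 and 79.5 in tumor. The part of muscle cells in the level of Scn4a was not tested.

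The genes of the sodium channel beta subunits Scn2b, Scn3b and Scn4b fell in the same comparison. Scn2b had 177 and 174 CPM in vehicle naive brain, 6.73 and 6.87 in vehicle tumor, 182 and 193 in naive brain under MRX-2843, and 136 and 139 in MRX-2843 tumor as labelled, a change of -4.69 ± 0.070 in tumor. Scn3b had 104 and 113 CPM in vehicle naive brain, 2.94 and 2.99 in vehicle tumor, 92.1 and 89.4 in naive brain under MRX-2843, and 84.7 and 80.7 in MRX-2843 tumor as labelled, a change of -5.19 ± 0.087. In each case the vehicle tumor libraries lay below the other 6. Scn4b, whose protein is known for resurgent sodium current, had 63.5 and 59.7 CPM in vehicle naive brain, 1.71 and 1.97 in vehicle tumor, 242 and 242 in naive brain under MRX-2843, and 303 and 317 in MRX-2843 tumor as labelled, and changed by -5.06 ± 0.083 in vehicle tumor (adjusted p = 4.1e-16).

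No calcium channel pore gene rose in vehicle tumor, and 9 of 10 fell, where 29.3% of all genes rose and 30.8% fell. Their summed level was 68.7 and 69.3 CPM per kb in vehicle naive brain, against 12.6 and 12.1 in vehicle tumor. The CaV2 genes, known from presynaptic terminals, all fell. Cacna1b had 127 and 113 CPM in vehicle naive brain, 3.50 and 3.61 in vehicle tumor, 129 and 122 in naive brain under MRX-2843, and 128 and 124 in MRX-2843 tumor as labelled. Its log2 fold change was -5.08 ± 0.088 (adjusted p = 7.4e-16), with the vehicle tumor libraries far below all others. Cacna1a had 116 and 119.5 CPM in vehicle naive brain, 12.9 and 11.3 in vehicle tumor, 111 and 102 in naive brain under MRX-2843, and 134 and 148 in MRX-2843 tumor as labelled, a change of -3.28 ± 0.085, and Cacna1e, the R-type channel, changed by -3.53 ± 0.076.

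The T-type genes fell too, at smaller log2 values. Cacna1g had 115 and 117 CPM in vehicle naive brain, 18.4 and 20.0 in vehicle tumor, 132 and 123 in naive brain under MRX-2843, and 129.8 and 139 in MRX-2843 tumor as labelled, a change of -2.60 ± 0.072 from vehicle naive brain to vehicle tumor, and Cacna1h and Cacna1i changed by -2.45 ± 0.077 and -1.81 ± 0.092. The L-type genes Cacna1d and Cacna1c had the smallest falls among the pore genes called. Cacna1d had 62.0 and 63.7 CPM in vehicle naive brain, 26.4 and 27.8 in vehicle tumor, 55.1 and 56.6 in naive brain under MRX-2843, and 74.3 and 79.3 in MRX-2843 tumor as labelled, a change of -1.21 ± 0.073, and Cacna1c, the L-type channel that heart and smooth muscle share with neurons, went from 70.1 and 70.2 CPM to 41.0 and 37.9, a change of -0.83 ± 0.077 (adjusted p = 1.9e-07). The retinal L-type gene Cacna1f, on chromosome X, was at or below 1.13 CPM in these libraries and was not called (-0.65 ± 0.72). Cacna1s, of skeletal muscle, was at 0.502 and 1.64 CPM in naive brain and 0 and 0.113 in tumor. It was called lower (-4.19 ± 1.37, adjusted p = 0.016), but not without vehicle naive library 2 (-3.10).

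Among alpha2delta subunits, Cacna2d2 (chr9:107399612-107529343, plus strand, GRCm38), like Cacna2d1 a gabapentin-binding protein, was the gene that rose. It had 33.1 and 31.4 CPM in vehicle naive brain, 296 and 304 in vehicle tumor, 135 and 146 in naive brain under MRX-2843, and 54.5 and 56.1 in MRX-2843 tumor as labelled. The rise from vehicle naive brain to vehicle tumor was 3.22 ± 0.067, 9.29-fold (adjusted p = 4.4e-15), and the groups followed each other without overlap. Cacna2d1 had 188 and 173 CPM in vehicle naive brain, 29.2 and 31.5 in vehicle tumor, 73.8 and 90.8 in naive brain under MRX-2843, and 128 and 120.5 in MRX-2843 tumor as labelled, a change of -2.57 ± 0.092 in vehicle tumor. Cacna2d3 changed by -2.94 ± 0.094, and Cacna2d4, known from photoreceptors, was not called (-0.0337 ± 0.26, at 3.03 and 3.02 and then 3.17 and 2.74 CPM). Cacna2d2 thus went from 16.6 and 16.3% of the summed alpha2delta level per kb to 91.5% in each library, and Cacna2d1 from 60.3 and 57.6% to 5.79 and 6.08%.

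All 4 genes of the cytoplasmic beta subunits of calcium channels fell, as did 30.8% of all genes. Their summed level went from 126 and 127 CPM per kb to 9.74 and 11.2. Cacnb3, the most abundant per kb in naive brain, had 325 and 325 CPM in vehicle naive brain, 18.8 and 22.7 in vehicle tumor, 183 and 168 in naive brain under MRX-2843, and 245 and 272 in MRX-2843 tumor as labelled. It changed by -3.97 ± 0.089 (adjusted p = 1e-14). Cacnb4, the gene mutated in the lethargic mouse, fell by 4.66 ± 0.10 on the log2 scale, Cacnb2, known from heart, fell by 3.38 ± 0.12, and Cacnb1 fell by 2.77 ± 0.081.

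Of the gamma genes, 5 fell and 1 rose, where 30.8% of all genes fell and 29.3% rose. The riser was Cacng5 (chr11:107874605-107915055, minus strand, GRCm38), a TARP of the less studied type II, with 14.0 and 15.3 CPM in vehicle naive brain, 102 and 103 in vehicle tumor, 21.8 and 21.4 in naive brain under MRX-2843, and 8.84 and 10.5 in MRX-2843 tumor as labelled. The vehicle tumor libraries stood above the other 6, and the rise was 2.81 ± 0.099, 6.99-fold (adjusted p = 2e-12). The type I TARP Cacng4, its neighbour, lay at 41.7 and 43.1 CPM in naive brain and 43.9 and 40.3 in tumor, with overlapping libraries and a log2 fold change of -0.0103 ± 0.074 (adjusted p = 0.92). With library totals in place of TMM, which shifts the median of all genes by 0.25, Cacng4 was called higher, at 0.24. Cacng7, the other type II TARP, had 189 and 177 CPM in vehicle naive brain, 34.2 and 34.5 in vehicle tumor, 146 and 126 in naive brain under MRX-2843, and 142 and 152 in MRX-2843 tumor as labelled, a change of -2.42 ± 0.077. The type I TARPs Cacng2 (stargazin), Cacng3 and Cacng8 changed by -4.94 ± 0.13, -5.03 ± 0.12 and -4.31 ± 0.18. Cacng6, which resembles the muscle gamma subunit, had 2.94 and 2.10 CPM in vehicle naive brain, 0 and 0.0454 in vehicle tumor, 0.369 and 0.600 in naive brain under MRX-2843, and 0.492 and 0.742 in MRX-2843 tumor as labelled, and the fitted change of -6.68 ± 0.94 in tumor rests on 0 and 4 counts there. Cacng1, the muscle gamma subunit, was at or below 0.272 CPM in these 4 libraries and was not called (0.13 ± 0.94).

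**Figure D2:**
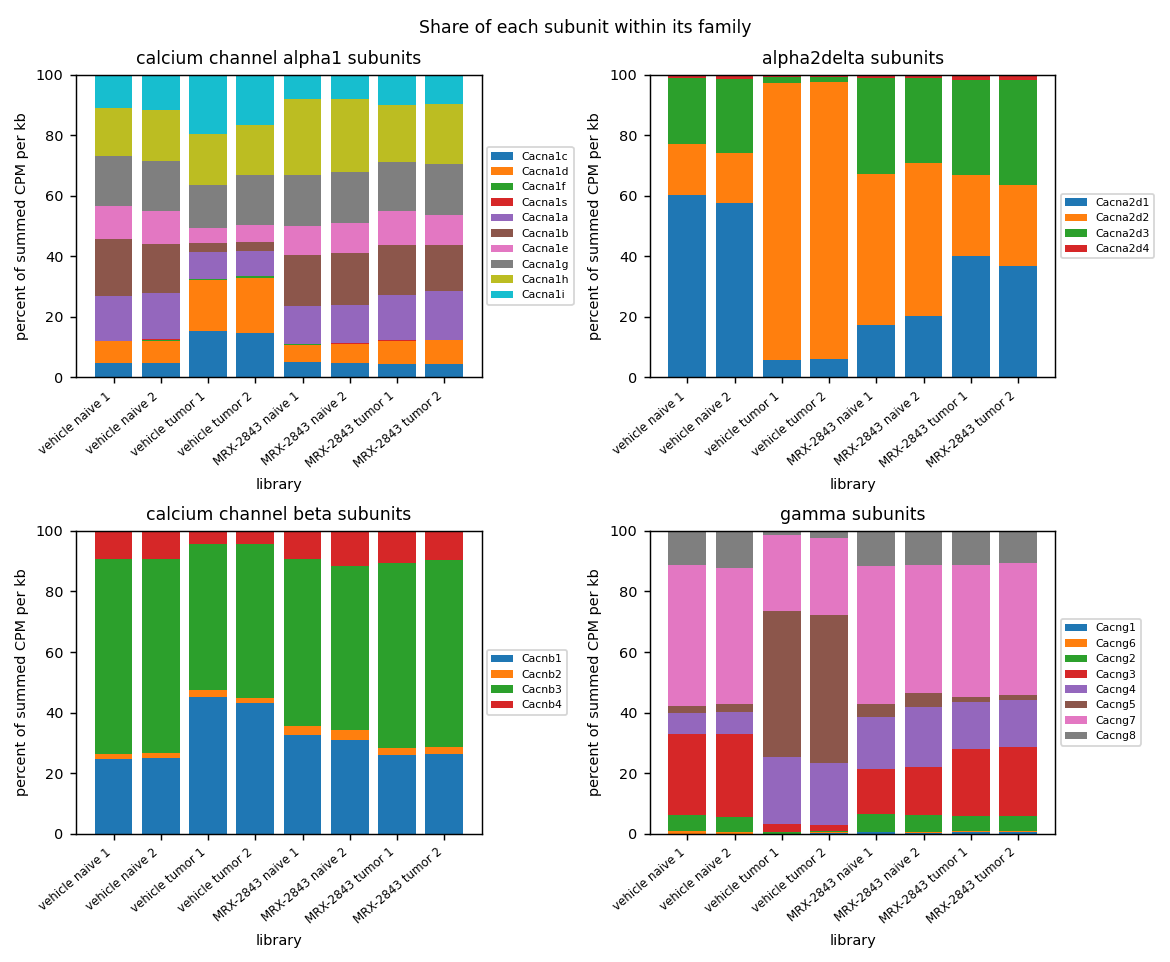
Stacked bars of the share (percent of summed CPM per kb) that each subunit takes within its family, per library, for calcium channel alpha1, alpha2delta, calcium channel beta and gamma subunits. Cacna2d2 takes 91.5% of the alpha2delta bar of vehicle tumor library 1, against 16.6% in vehicle naive library 1.

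**Figure D3:**
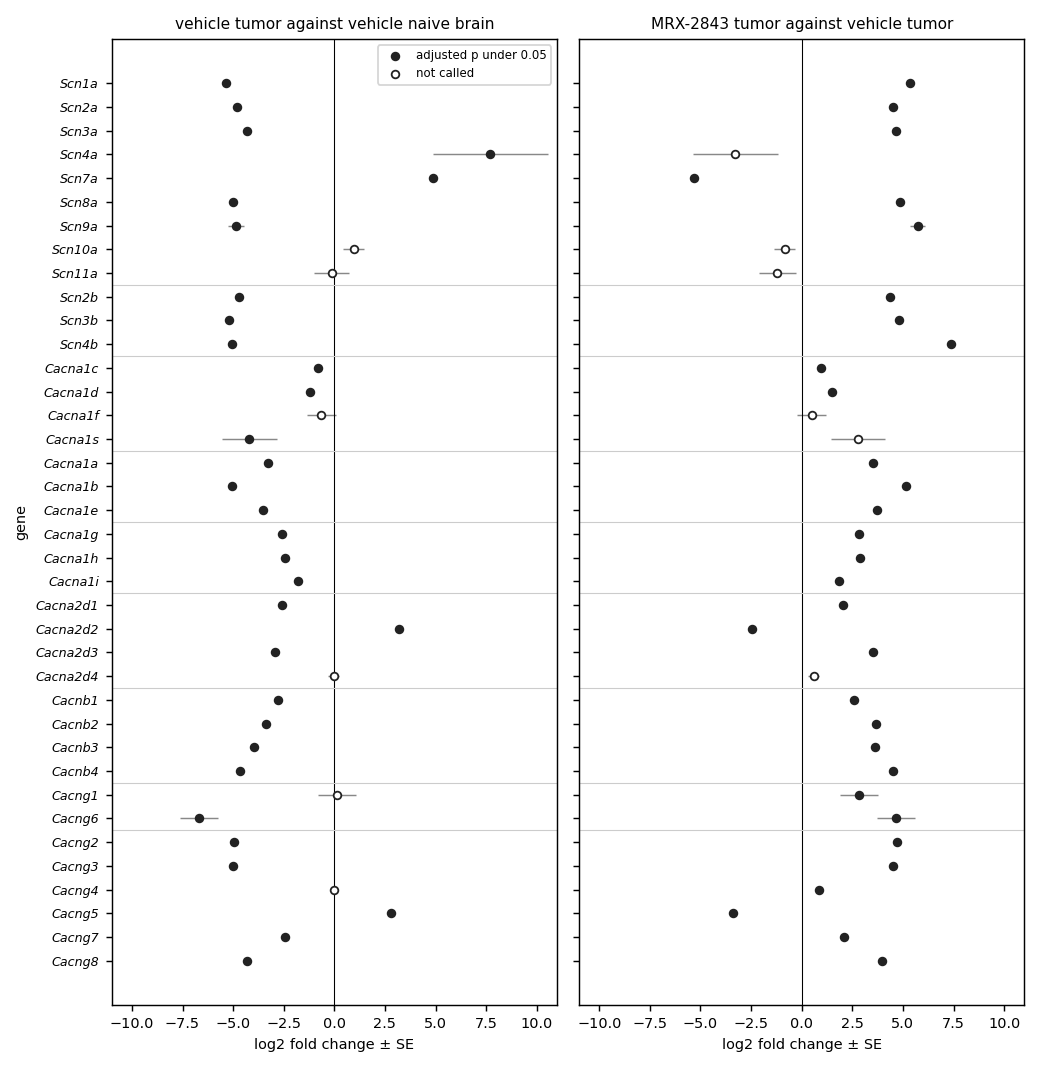
Log2 fold change ± SE of each of the 38 genes (rows), for vehicle tumor against vehicle naive brain and for MRX-2843 tumor as labelled against vehicle tumor; filled points have an adjusted p under 0.05. In the first panel 28 genes lie to the left and 4 to the right as filled points, Scn4a among the latter; in the second 29 lie to the right and 3 to the left.

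**Figure D4:**
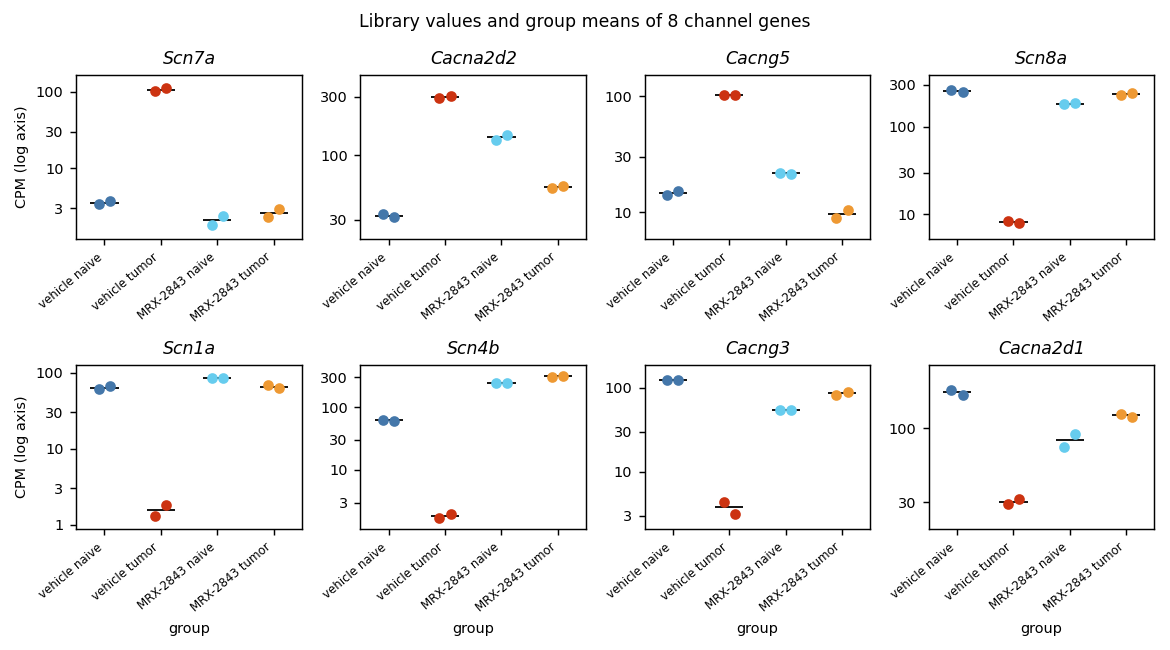
CPM of 8 of the genes on log axes, 1 panel per gene, with 1 point per library and 2 libraries in each of the 4 groups. Scn7a is at 101 and 111 CPM in vehicle tumor and 3.39 and 3.72 in vehicle naive brain, while Scn4b goes the other way, from 63.5 and 59.7 to 1.71 and 1.97 CPM; horizontal lines are group means.

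Promoter sequence was read from RefSeq windows on GRCm38.p6 that span 250 bases before to 50 after a transcript start. Of the 38 genes 30 had a window there, 41 windows in all. The 8 without one were Scn3a, Scn3b, Cacna1a, Cacna1g, Cacna1h, Cacna2d4, Cacng1 and Cacng4. The transcriptional repressor REST, known to silence neuronal genes, Scn2a among them, in other tissues, binds the RE1 element, and its left and right motifs were searched on both strands. The left motif CAGCACC was in 0 of 30 genes and in 8.14% of all genes with a window. The right motif GGACAGC was in 2 of 30, Cacnb1 and Cacng6 (6.67%), and in 7.59% of all genes. Both motifs in that order with 2 bases between them were in 0 of 30 and in 0.0259% of all genes. A kB-type sequence, GGGA and TTCC with 2 free bases between them, searched after the values were seen because the fusion of this model includes RELA, an NF-kB subunit, was in Cacnb2 alone (3.33%, against 1.63% of all genes). These are matches of letters in these windows and nothing more. The CG dinucleotides of the promoters varied widely, with 3 in the Scn7a window, 43 in that of Cacna2d2 and 17 in the outer window of Cacng5, against a median of 7 over all windows. The sequences follow for the 3 genes that rose in vehicle tumor and have a window with a start near the annotated gene start, and for the motif-bearing windows of Cacnb2 (kB-type match in capitals) and Cacnb1 (RE1 right motif in capitals), both of which fell. Each is written 5′ to 3′ on the gene's strand.
Scn7a chr2:66784861-66785160 (- strand): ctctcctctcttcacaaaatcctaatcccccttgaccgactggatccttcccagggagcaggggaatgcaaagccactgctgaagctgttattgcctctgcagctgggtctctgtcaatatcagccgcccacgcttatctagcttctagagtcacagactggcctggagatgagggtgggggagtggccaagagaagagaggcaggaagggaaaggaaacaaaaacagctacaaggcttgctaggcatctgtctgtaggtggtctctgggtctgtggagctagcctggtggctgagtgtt
Cacna2d2 chr9:107399630-107399929 (+ strand): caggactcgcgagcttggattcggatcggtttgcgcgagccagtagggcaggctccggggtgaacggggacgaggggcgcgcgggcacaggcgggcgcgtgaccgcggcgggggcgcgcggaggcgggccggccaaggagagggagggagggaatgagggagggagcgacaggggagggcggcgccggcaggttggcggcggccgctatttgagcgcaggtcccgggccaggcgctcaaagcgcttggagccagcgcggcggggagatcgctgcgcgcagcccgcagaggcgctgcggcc
Cacng5 chr11:107915006-107915305 (- strand): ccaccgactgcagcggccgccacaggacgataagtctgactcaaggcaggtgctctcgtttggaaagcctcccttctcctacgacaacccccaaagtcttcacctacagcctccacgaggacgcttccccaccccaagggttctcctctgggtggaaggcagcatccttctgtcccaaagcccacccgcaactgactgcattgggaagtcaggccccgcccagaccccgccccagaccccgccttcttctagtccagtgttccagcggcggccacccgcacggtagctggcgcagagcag
Cacnb2 chr2:14604056-14604355 (+ strand): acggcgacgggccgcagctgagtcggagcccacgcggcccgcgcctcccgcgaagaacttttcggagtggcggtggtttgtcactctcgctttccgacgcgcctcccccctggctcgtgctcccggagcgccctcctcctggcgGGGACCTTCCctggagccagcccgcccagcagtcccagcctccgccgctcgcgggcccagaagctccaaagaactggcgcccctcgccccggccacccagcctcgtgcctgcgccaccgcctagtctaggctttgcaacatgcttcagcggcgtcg
Cacnb1 chr11:98022578-98022877 (- strand): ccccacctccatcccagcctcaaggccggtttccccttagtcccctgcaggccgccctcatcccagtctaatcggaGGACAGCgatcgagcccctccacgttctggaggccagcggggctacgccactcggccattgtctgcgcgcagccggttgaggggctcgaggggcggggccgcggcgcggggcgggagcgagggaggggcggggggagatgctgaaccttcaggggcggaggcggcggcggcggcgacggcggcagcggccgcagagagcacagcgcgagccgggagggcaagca

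Genes whose products anchor, modify or act downstream of these channels were read from lists of partners in the same comparison of vehicle tumor with vehicle naive brain. Most of them fell, where 30.8% of all genes fell and 29.3% rose. Of 12 partners of the axon initial segment and node, 10 fell and 2 rose. Cntnap1, a paranodal adhesion protein, went from 182 and 183 CPM to 12.6 and 13.5 (log2 fold change -3.80 ± 0.068), and Ank3, whose ankyrin-G product anchors sodium channels, from 179 and 175 to 13.6 and 14.9 (-3.63 ± 0.072). All 4 fibroblast growth factor homologous factors, which bind sodium channel tails, fell, with Fgf12 at -4.78 ± 0.10 and Fgf13 at -4.17 ± 0.11. Of 12 genes of active zone proteins 11 fell and none rose, with Unc13a (-4.85 ± 0.062) and Bsn (-4.78 ± 0.065) among those that fell. All 14 signalling partners fell, with Camk2a at -4.07 ± 0.050 and Cabp1 at -5.29 ± 0.082. All 4 AMPA receptor subunits, the cargo of TARPs, fell, with Gria1 at -3.06 ± 0.056 and Gria3 at -2.08 ± 0.059.

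Among 7 genes of the RGK GTPases, which inhibit calcium channels, and the STAC adaptors, 2 rose and 3 fell. Stac2 rose from 98.4 and 105 to 846 and 841 CPM (3.06 ± 0.055), and Rem2 fell from 7.75 and 5.75 to 0.139 and 0.295 (-4.95 ± 0.25). Of 9 genes of the REST repressor complex, 6 rose and 2 fell. Rest itself had 3.70 and 3.71 CPM in vehicle naive brain, 37.0 and 36.1 in vehicle tumor, 4.68 and 4.76 in naive brain under MRX-2843, and 6.21 and 3.84 in MRX-2843 tumor as labelled, a rise of 3.30 ± 0.20 in vehicle tumor (adjusted p = 9.6e-10). Its corepressor Rcor2 rose by 1.90 ± 0.10. Median log2 fold changes were -2.50 for the node list, -3.82 for the homologous factors, -4.34 for the active zone, -4.20 for the signalling partners, -1.90 for AMPA receptor subunits, 0.28 for RGK and STAC genes and 0.99 for the REST list, against -0.026 for all genes tested. Any part of REST in the channel genes' falls was not tested.

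Markers of other cell types moved in the same comparison, in which 29.3% of all genes rose and 30.8% fell. All 10 microglia and macrophage markers rose in vehicle tumor, with a summed level of 249.7 and 253 CPM in naive brain and 2123 and 2169.8 in tumor, as did all 9 endothelial markers (305 and 315 against 843 in each library) and 6 of 7 oligodendrocyte precursor markers (261 and 266 against 1319 and 1360.5). Of 9 mural cell and fibroblast markers 5 rose and 1 fell, and their sum went from 163 and 164 to 7762 and 7834 CPM, with Col1a1, a fibroblast collagen, at 11.6 and 11.2 and then 5510.3 and 5533 CPM. Of 8 sensory neuron and Schwann cell markers 2 rose and 3 fell. Their sum went from 39.4 and 36.7 to 994 and 1077 CPM, with Pmp22, a myelin protein gene that other cells also express, at 35.5 and 32.4 and then 989.8 and 1071. Among 10 astrocyte markers 3 rose and 5 fell (3339 and 3333 against 4337 and 4391 CPM summed). The 10 oligodendrocyte markers all fell (7559.5 and 7495 against 491 and 506), as did all 10 striatal, 9 cortical excitatory and 8 inhibitory neuron markers. All 8 proliferation markers rose. Counts of rises and falls were 3 and 5 of 8 neuroblast markers, 2 and 3 of 6 photoreceptor markers tested, 2 and 4 of 8 ependymal cell markers and 1 and 4 of 6 erythrocyte markers. The part of any of these lists in the channel genes' changes was not tested.

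Some of these genes lie next to each other, and neighbours did not always move the same way. On chromosome 2, Scn9a and Scn7a are 38.5 kb apart, and in vehicle tumor the first changed by -4.85 and the second by 4.90. Scn1a, 39.2 kb from Scn9a on the other side, changed by -5.33. On chromosome 9, Scn10a and Scn11a, 34.4 kb apart, were not called, and Scn2b and Scn4b, 8.32 kb apart, changed by -4.69 and -5.06. On chromosome 11, Cacng5 is 80.05 kb from Cacng4, and on chromosome 7 Cacng7, Cacng8 and Cacng6 lie within gaps of 22.5 and 8.55 kb and fell together. Exons of 11 of the 38 genes overlap those of other genes, all but 1 on the opposite strand. Among the risers named here this holds for Cacna2d2 and 82 bases of Gm17141, which had at most 0.239 CPM on average in any group. The counting's use of strand is not given in the sources used here.

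MRX-2843 tumor as labelled was then compared with vehicle tumor, whose libraries the comparison above also uses. Scn4a, tested only because of its reads in vehicle tumor, is again left out of the counts. Of the other 37 channel genes 29 were higher and 3 lower with MRX-2843. So 32 (86.5%) were called, where 60.4% of all genes tested were (30.6% higher, 29.8% lower). At least 2-fold rises numbered 27 and falls 3, against 39.9% of all genes past 2-fold (21.5% higher, 18.3% lower). The median log2 fold change was 3.51 for the 37 genes and 0.034 for all. The libraries of the groups did not overlap for any of the 37 genes, and for 80.9% of all genes. The highest of the rises was that of Scn4b, 7.39 ± 0.086 (adjusted p = 2.7e-17), followed by Scn9a (5.72 ± 0.38), Scn1a (5.37 ± 0.13), Cacna1b (5.15 ± 0.089) and Scn8a (4.87 ± 0.068). The 3 that were lower were Scn7a (-5.34 ± 0.15), Cacng5 (-3.41 ± 0.10) and Cacna2d2 (-2.44 ± 0.064). Of the 12 neuron markers 11 were higher and 1 lower, with the sums given above, and their part in these differences was not tested. The low-level genes Scn4a, Scn10a, Scn11a, Cacna1f, Cacna1s and Cacna2d4 were not called.

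A pair of low-level calcium channel genes in this comparison depended on single libraries. Cacng1, at 0.0462 and 0.272 CPM in vehicle tumor and 1.05 and 1.23 in MRX-2843 tumor as labelled, was called higher (2.83 ± 0.94, adjusted p = 0.018), but not without vehicle tumor library 1 (2.06) or MRX-2843 tumor library 2 (2.69). Cacna1s, not called (2.77 ± 1.33, adjusted p = 0.086), was called without vehicle tumor library 2, the one with counts of it (7.82), and without MRX-2843 naive library 1 (2.76), without the filter and with a replicate block (2.76 and 3.75).

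Under MRX-2843, libraries labelled tumor and naive brain were next compared, and fewer channel genes were called than in the comparisons above, a difference in counts that was not tested. Of the 38, 10 were higher and 8 lower, 47.4% called, where 24.4% of all genes tested were (12.4% higher, 11.9% lower). The median log2 fold change was 0.074, and 0 over all genes. Libraries did not overlap for 25 of 38 genes, against 57.7% of all. No called rise reached 2-fold and 4 falls did, those of Scn11a, Scn10a, Cacna2d2 and Cacng5, where 5.6% of all genes passed 2-fold (3.17% higher, 2.43% lower). The sums per kb of the pore genes were close, 77.0 and 71.4 CPM per kb for calcium channels in naive brain and 78.4 and 81.2 in the libraries labelled tumor.

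Of the 26 calcium channel genes 8 were higher, and of the 12 sodium channel genes, Scn4a included, 2 were. The difference between these counts was not tested. Cacng3 had 54.6 and 53.9 CPM in naive brain under MRX-2843, against 82.0 and 89.0 in the libraries labelled tumor (0.66 ± 0.096, adjusted p = 0.00014), with 124 and 123 in vehicle naive brain, against 4.42 and 3.15 in vehicle tumor. Cacna2d1 was higher by 0.59 ± 0.087, Cacnb3 by 0.56 ± 0.078, Cacna1d by 0.46 ± 0.072 and Cacna1a by 0.40 ± 0.076, from the levels given above. Cacna1i (0.40 ± 0.088), Scn8a (0.38 ± 0.056), Scn4b (0.36 ± 0.059), Cacnb4 (0.34 ± 0.082) and Cacna1e (0.24 ± 0.067) followed. Among the genes that were lower, Cacna2d2 fell by 1.35 ± 0.063 (adjusted p = 2.4e-09), Cacng5 fell by 1.16 ± 0.10 and Scn2b fell by 0.44 ± 0.057. Scn1a (-0.38 ± 0.094), Cacna2d3 (-0.29 ± 0.083) and Cacna1h (-0.25 ± 0.071) were lower by less. Scn10a had 0.416 and 0.894 CPM in vehicle naive brain, 1.10 and 1.44 in vehicle tumor, 2.46 and 2.53 in naive brain under MRX-2843, and 0.914 and 0.506 in MRX-2843 tumor as labelled, a change of -1.81 ± 0.53, and Scn11a had 0.287 and 0.238 CPM in vehicle naive brain, 0.208 and 0.272 in vehicle tumor, 1.76 and 0.693 in naive brain under MRX-2843, and 0.105 and 0.101 in MRX-2843 tumor as labelled, a change of -3.54 ± 0.96. Cacna2d2 and Cacng5, risers in vehicle tumor, were thus lower in MRX-2843 tumor as labelled than in MRX-2843 naive brain, and Scn7a was not called (0.29 ± 0.16).

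Marker lists moved in this comparison as well. The 9 cortical excitatory neuron markers were all higher in the libraries labelled tumor (2073 and 1901 CPM summed in MRX-2843 naive brain, 4507 and 4769.9 in the libraries labelled tumor), the 10 oligodendrocyte markers were all higher (7661 and 7593 against 14230.0 and 14691), 6 of 8 inhibitory neuron markers were lower and 1 higher (1259 and 1276 against 688 and 721), and of the 12 neuron markers 7 were lower and 1 higher. Of 8 proliferation markers 6 were higher and 0 lower (6.44 and 4.75 CPM summed against 29.9 and 24.1). Of 10 microglia and macrophage markers 6 were higher and 0 lower, and of 7 oligodendrocyte precursor markers 5 and 0. Striatal projection neuron markers were lower in 4 of 10 cases and higher in 0. Of all genes tested, 12.4% were higher and 11.9% lower. The part of these lists in the channel genes' changes was not tested. Several calls rested on single libraries. Without naive library 1 only 4 genes were called lower, since Scn10a (-1.83), Scn11a (-2.73), Cacna2d3 (-0.25) and Cacna1h (-0.17) were not, and Cacnb4 (0.23) was lost while Cacng7 (0.23) was gained. Without naive library 2, Cacna1e (0.21) and Scn10a (-1.79) were lost. Leaving out labelled tumor library 1 ended the calls of Cacna1e (0.17), Scn11a (-3.57), Cacna2d3 (-0.19) and Cacna1h (-0.20), and leaving out library 2 those of Scn1a (-0.30), Scn10a (-1.44) and Scn11a (-3.50). Scn2a (0.20 ± 0.074, adjusted p = 0.068) and Scn9a (-0.71 ± 0.27, adjusted p = 0.075) missed the threshold and were called without vehicle tumor library 1 or 2 (0.20 for Scn2a and -0.71 for Scn9a in the former case), Scn9a also without vehicle naive library 2 (-0.71). Both were called with no filter (0.20 and -0.71) and with only the groups compared (0.20 and -0.72), and Scn2a with DESeq2 size factors (0.23), library totals (0.24), the DESeq2 test (0.23) and a stricter filter (0.22).

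Naive brain of MRX-2843-treated mice was last compared with that of vehicle-treated mice. Of the 38 channel genes 10 were higher and 12 lower, 57.9% called, where 21.5% of all genes tested were (9.78% higher, 11.7% lower). Past 2-fold, 4 were higher and 3 lower, where 5.7% of all genes were (2.82% higher, 2.88% lower). The median log2 fold change was -0.036 for these genes and 0.018 for all. Libraries did not overlap for 33 of 38 genes, against 57% of all. Sodium channel alpha subunits were called in 7 of 9 cases (4 higher, 3 lower) and calcium channel pores in 2 of 10 (1 higher, 1 lower). The difference between these counts was not tested.

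Cacna2d2 rose by 2.12 ± 0.065 or 4.36-fold (adjusted p = 1.2e-11), from 33.1 and 31.4 to 135 and 146 CPM, which took it to 49.8 and 50.7% of the summed alpha2delta level per kb. With the longest transcript as length, its shares in naive brain under MRX-2843 were 39.2 and 40.6%. Those of Cacna2d3 were then 43.0 and 38.6%. Scn4b rose by 1.97 ± 0.062 (adjusted p = 1.9e-11), and its libraries were at 63.5 and 59.7 CPM under vehicle and 242 and 242 under MRX-2843, with 303 and 317 in MRX-2843 tumor as labelled. Scn10a (1.93 ± 0.53) and Scn9a (1.59 ± 0.28) rose from the low levels given above. Cacng4 rose by 0.98 ± 0.074, from 41.7 and 43.1 to 80.9 and 86.3 CPM, with 75.6 and 79.2 in MRX-2843 tumor as labelled. Cacna2d3 (0.87 ± 0.084), Cacna1h (0.70 ± 0.072), Cacng5 (0.56 ± 0.097), Scn3a (0.47 ± 0.11) and Scn1a (0.42 ± 0.094) rose by less.

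Falls in the same comparison were led by Cacng6 (-2.36 ± 0.71, adjusted p = 0.027), at 2.94 and 2.10 and then 0.369 and 0.600 CPM. Cacng3 fell by 1.19 ± 0.096, from 124 and 123 to 54.6 and 53.9 CPM. Cacna2d1 (-1.13 ± 0.087), Cacnb3 (-0.89 ± 0.078) and Scn7a (-0.73 ± 0.16) followed. Scn8a (-0.49 ± 0.055), Scn2a (-0.48 ± 0.074), Cacnb4 (-0.48 ± 0.082), Cacng7 (-0.43 ± 0.073), Cacna1i (-0.39 ± 0.088), Cacnb1 (-0.30 ± 0.074) and Scn3b (-0.25 ± 0.067) fell by less than 2-fold. None of the CaV1 and CaV2 pore genes was called, and among them Cacna1s had the lowest log2 value and Cacna1c the highest (-1.10 ± 1.17 and 0.17 ± 0.076).

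Neuron subtype markers differed between these groups of naive brain. All 10 striatal projection neuron markers were higher under MRX-2843 (485 and 479 CPM summed against 2479.6 and 2448), and all 9 cortical excitatory neuron markers were lower (6179 and 6171 against 2073 and 1901). Inhibitory neuron markers were higher in 6 of 8 cases and lower in 2 (786 and 793 against 1259 and 1276). Of the 12 neuron markers 2 were higher and 7 lower (7898 and 7864 against 5822 and 5790.0). Their part in the channel genes' changes was not tested. Drug and sex cannot be told apart here. Without vehicle naive library 1, the calls of Scn10a (1.48), Cacng6 (-2.10), Scn3a (0.42) and Scn1a (0.35) were lost, and without vehicle naive library 2 those of Cacng6 (-2.58), Scn3b (-0.19), Cacnb1 (-0.29) and Cacna1i (-0.34). Leaving out MRX-2843 naive library 1 ended the call of Cacng6 (-2.07), leaving out library 2 those of Scn10a (1.91), Scn3b (-0.23) and Cacnb1 (-0.22), and fitting only the groups compared that of Scn7a (-0.77). Cacng8 (-0.43 ± 0.15, adjusted p = 0.052) was just outside the threshold and was called in 5 of the 8 fits that leave out a library, without either vehicle tumor library (-0.43 and -0.43), either labelled MRX-2843 tumor library (-0.43 and -0.44) or MRX-2843 naive library 1 (-0.52). It was also called with a replicate block (-0.43), DESeq2 size factors (-0.45), the DESeq2 test (-0.45), no filter (-0.43), a stricter filter (-0.43) and only the groups compared (-0.44).

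**Figure D5:**
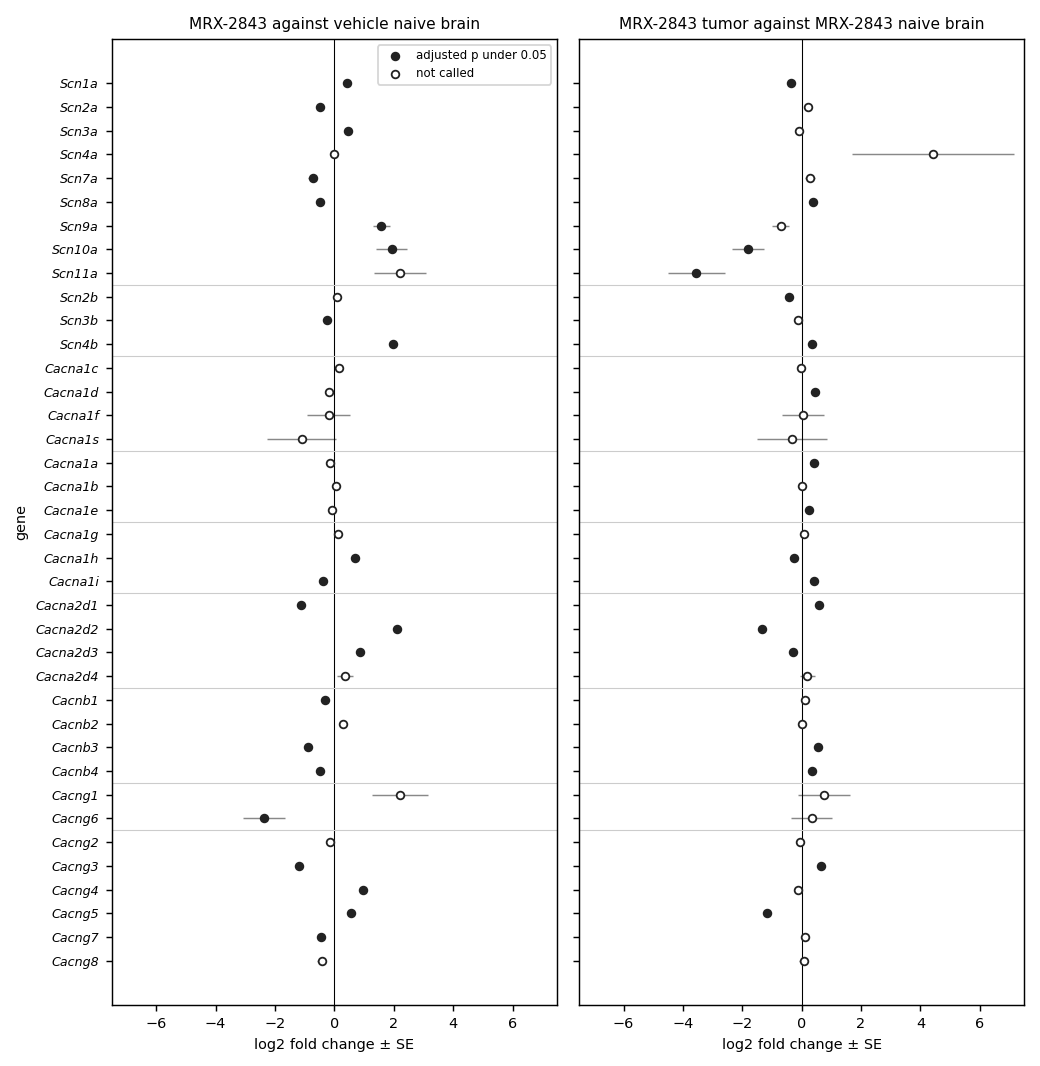
Log2 fold change ± SE of each of the 38 genes (rows), for MRX-2843 against vehicle naive brain (left) and for MRX-2843 tumor as labelled against MRX-2843 naive brain (right); filled points have an adjusted p under 0.05. Cacna2d2 and Cacng5 lie to the right in the left panel (2.12 and 0.56) and to the left in the right panel (-1.35 and -1.16).

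The tumor-to-naive log2 fold change under MRX-2843 minus that under vehicle, the interaction of treatment and tissue, was called for 32 of 38 channel genes, 27 above 0 and 5 below. Of all genes tested 51.6% were called, 26.3% above and 25.3% below. At an absolute value of at least 1 the channel genes numbered 26 above and 5 below, against 36.5% of all genes (19.5% above, 17% below). Values below 0 included Scn7a at -4.61 ± 0.21 (adjusted p = 7.7e-11), Cacna2d2 at -4.56 ± 0.091 and Cacng5 at -3.96 ± 0.14. Scn10a and Scn11a, of sensory neurons, were also below 0, at -2.77 ± 0.75 and -3.41 ± 1.28. Scn8a at 5.36 ± 0.086 and Cacna1b at 5.09 ± 0.11 were among the values above 0.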

How the data were processed

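The authors deposited raw read counts per gene as whole numbers; per the submitters' processing notes, the tools were featureCounts, Subread, SAMtools and STAR 2.7.7a, and the builds mm10 and hg38, with no roles stated. Strand, annotation and trimming are not given in the sources used here. Libraries were prepared by an outside company for Illumina sequencing, from RNA isolated with a GenCatch kit, per the labels.

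From these counts, CPM values and tests were computed in R 4.3.3 by edgeR 4.0.16, with filterByExpr at a minimum count of 10, TMM scaling and a quasi-likelihood fit of 4 group means over 8 libraries (residual degrees of freedom 4, biological coefficient of variation, common to all genes, 21.0%). A gene is called at a Benjamini-Hochberg adjusted p under 0.05 over all 24356 genes tested. An SE is the log2 fold change divided by the root of its F statistic, without sign. Identifiers were matched to GENCODE M21 on GRCm38 without their version (94.1% of all, 38 of 38 channel genes); coordinates and lengths come from it. A count of 0 allows up to 3 counts, 0.0266 to 0.0587 CPM by library; floors cover counting error only. The steps were tested on simulated data in which few genes changed. That test cannot show how scaling and errors behave where as many genes change as in vehicle tumor.

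The channel genes and the 18 marker and 7 partner lists were chosen with earlier results of these data known. Of the 40 channel genes 2 are not reported here, and counts are over the other 38. Values in every library are given for the most abundant gene of each class, the 5 largest rises and falls per comparison, every riser described in vehicle tumor and up to 10 calls in MRX-2843 tumor against naive brain. The 2 genes of each partner list with the smallest adjusted p in vehicle tumor against naive brain and Rest are named. Alternatives were 2 other scalings, DESeq2 1.42.0, 2 filters, a replicate block, only the groups compared, a 2-fold minimum, fits without mitochondrial or X and Y genes, and leaving out libraries. Where 1 library remains in a group it is assumed to vary like the others. The libraries of a group differed beyond counting noise (chi-square per gene 9.23 to 18.8) and were kept apart. Python 3.11.15 with pandas 2.3.3 and matplotlib 3.10.9 made tables and plots.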

Additional observations from a re-analysis of the deposited data

Results flagged for a closer look

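The difference between libraries labelled tumor and naive brain was not the same under the 2 treatments for most of these genes. The interaction of treatment and tissue, the tumor-to-naive log2 fold change under MRX-2843 minus that under vehicle, was called for 32 of 38 genes, 27 above 0 and 5 below, where it was called for 51.6% of all genes tested (26.3% above, 25.3% below) in edgeR's quasi-likelihood test. All 8 libraries enter it, among them those labelled MRX-2843 tumor, whose 12 neuron markers summed to 4829.5 and 4836 CPM against 5822 and 5790.0 in naive brain under the drug.

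Values above 0 mean that a gene was low in vehicle tumor and not to the same extent in MRX-2843 tumor as labelled. Among sodium channel genes they were Scn1a (4.95), Scn2a (4.99), Scn3a (4.20), Scn8a (5.36), Scn9a (4.13), Scn2b (4.25), Scn3b (5.05) and Scn4b (5.42). Among calcium channel pores they were Cacna1c (0.80), Cacna1d (1.67), Cacna1a (3.69), Cacna1b (5.09), Cacna1e (3.77), Cacna1g (2.68), Cacna1h (2.19) and Cacna1i (2.21), and among auxiliary subunits Cacna2d1 (3.16), Cacna2d3 (2.64), Cacnb1 (2.88), Cacnb2 (3.40), Cacnb3 (4.53), Cacnb4 (5.00), Cacng6 (7.01), Cacng2 (4.87), Cacng3 (5.68), Cacng7 (2.53) and Cacng8 (4.38).

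Values below 0 were those of Scn7a (-4.61), Scn10a (-2.77), Scn11a (-3.41), Cacna2d2 (-4.56) and Cacng5 (-3.96). Against naive brain of the same treatment, Cacna2d2 rose by 3.22 ± 0.067 in vehicle tumor and fell by 1.35 ± 0.063 in MRX-2843 tumor as labelled, and Cacng5 changed sign in the same way. The 6 genes without a called interaction were Scn4a, Cacna1f, Cacna1s, Cacna2d4, Cacng1 and Cacng4.

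The interaction of Scn11a (adjusted p = 0.037) was not called with a replicate block (-3.38) or in 6 of the 8 fits that leave out a library (-3.56 to -2.60). It was called without vehicle tumor library 1 and without MRX-2843 naive library 2 (-3.94). That of Cacna1s (3.87 ± 1.76, adjusted p = 0.082) was called without vehicle naive library 1 (4.48), vehicle tumor library 2 (8.92) or MRX-2843 naive library 2 (6.44), with a replicate block (5.22, adjusted p = 0.021) and with no filter (3.86, adjusted p = 0.012). Sex and treatment coincide in these libraries, so the interaction cannot be told apart from a difference between the sexes or the animals.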

How the results depend on the processing

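Across the settings tried, 3139 single-gene values kept their sign and their side of the threshold, 37 gained a call, 42 lost it and 28 changed sign. With a minimum absolute log2 fold change of 1, the channel genes called in MRX-2843 tumor against MRX-2843 naive brain numbered 4 (0 higher, 4 lower; all genes 1363, of which 772 higher and 591 lower), and in MRX-2843 against vehicle naive brain 7 (4 higher, 3 lower; all genes 1389, 687 and 702). Under it 4643 of all genes were higher in vehicle tumor, and in MRX-2843 against vehicle tumor 9706 of all genes were called, 4464 of them lower. The ranges that follow are over all 38 channel genes, Scn4a included, so they do not match the counts over 37 genes given above. Among the fits that leave out a library, Scn4a was called in vehicle tumor against naive brain only where every vehicle library was kept. Leaving out single libraries gave 4 to 9 channel genes called lower in MRX-2843 tumor against naive brain and 14 to 20 called in all, 30 to 32 in vehicle tumor against naive brain, 31 to 33 in MRX-2843 against vehicle tumor, 18 to 23 in MRX-2843 against vehicle naive brain and 31 to 33 for the interaction.

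Signs changed only among values near 0 or from few counts, with 1 call among them, Cacng4 under library totals (0.24, given above). Under library totals Cacna2d4 (0.22) and Scn11a (0.12) turned in vehicle tumor against naive brain, and Cacna1c (0.0019) in MRX-2843 tumor against naive brain. Cacng4 turned in the first comparison with only the groups compared (0.0014) and without both MRX-2843 tumor libraries (0.0058). Leaving out single libraries turned, with the range over libraries, in vehicle tumor against vehicle naive brain Scn11a (-0.33 to 0.0549), Cacng1 (-1.62 to 0.90), Cacng4 (-0.0703 to 0.0517), Cacna2d4 (-0.14 to 0.0664); in MRX-2843 tumor against MRX-2843 naive brain Cacna1c (-0.12 to 0.0569), Cacng2 (-0.16 to 0.018), Cacna1s (-1.16 to 2.25), Cacna1b (-0.0306 to 0.0534), Cacng8 (-0.0168 to 0.16), Cacna1f (-0.71 to 1.52); in MRX-2843 against vehicle naive brain Cacna1b (-0.0232 to 0.15), Cacna1f (-1.67 to 0.56); in the interaction Cacng1 (-0.15 to 2.37), Cacna1f (-0.0605 to 2.17). The cause of these turns was not tested.

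Libraries with the same replicate number showed no shared deviation across groups, with r = -0.0788 to 0.0272 over 13541 genes. Because this check uses differences within a group, it cannot show whether tumor and naive libraries came from the same source. With a replicate block the channel genes called were 31, 18, 33, 23 and 32 in the 5 comparisons. The main fit called 32, 18, 32, 22 and 32, with Scn4a in the first count, and 60.1, 24.4, 60.4, 21.5 and 51.6% of all genes. The order is vehicle tumor against vehicle naive brain, then MRX-2843 tumor as labelled against its naive brain and against vehicle tumor. MRX-2843 against vehicle naive brain and the interaction come last. The block turned Cacna1s in MRX-2843 tumor against its naive brain (0.69).

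Library totals in place of TMM shift the median of all genes by 0.25 in vehicle tumor against naive brain, -0.22 in MRX-2843 against vehicle tumor and -0.22 for the interaction, where Cacng4 was then called (-0.32). With the longest transcript as length, Cacna2d2 had vehicle tumor shares of 89.0% on average. Depth limits the genes with few reads: Scn4a, Scn11a, Cacna1f, Cacna1s, Cacng1 and Cacng6 had few counts in most libraries, and their fitted values have wide errors.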
